A study of Mus musculus with 7 samples.

Results

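The genes described here are 10 regulators of cell death: Mcl1, the 3 copies of the A1 gene (Bcl2a1a, Bcl2a1b and Bcl2a1d), Bcl2, Bcl2l1, Bcl2l11, Bax, Bak1 and Cflar. They were taken by symbol, and all 10 were found among the 27514 gene symbols that the 7 single-cell matrices have in common. The series sampled leukocytes of male C57BL6/J mice around a myocardial infarction made by permanent ligation of the left anterior descending coronary artery. In 5 separate libraries, CD45+ cells that an antibody given into the bloodstream had not reached were sorted from hearts at steady state (5 mice) and on day 1, day 3, day 5 (5 mice each) and day 7 (3 mice) after infarction, and a step that reduced neutrophils came before the sort. The CD11b+ heart pool was 1 library of infarcted hearts in which hashtag antibodies marked day 1 (5 mice), day 3 (5 mice) and day 5 (3 mice), with antibodies to 10 surface proteins, Ly6G among them, read in the same cells, and the cells of each day were sorted with a different CD11b conjugate. The blood and heart CD11b+ pool held 7 hashtags over mice without surgery (3 mice), sham-operated mice at day 1 and day 3 (3 mice each) and infarcted mice at day 1 and day 3 (5 mice each). Its mice were 8 to 10 weeks old (the labels give no age for the others), and its Ly6G+ and Ly6G- cells were brought to about equal numbers before capture. The labels do not tie those 7 hashtags to conditions, so its values are given per hashtag and enter no comparison. The mice of each library or hashtag were pooled before capture, so every value is 1 pooled sum of UMIs, and p-values measure only the spread between such sums, not between mice.

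Proteins of the Bcl2 family meet at the outer membrane of the mitochondrion. Bax and Bak1 open it and release the factors that activate caspases, the survival proteins Mcl1, A1, Bcl2 and Bcl-xL (the product of Bcl2l1) hold them back, and BH3-only proteins such as Bim (the product of Bcl2l11) bind the survival proteins and set the effectors free. Cflar encodes c-FLIP, which blocks caspase-8 at death receptors. Neutrophils are short-lived, hold Mcl1 protein that turns over quickly, and raise A1 when they are activated, whereas mature neutrophils are known for having little Bcl2.

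The 10 genes are protein-coding and lie at separate places in the GRCm38 assembly, except for the A1 copies, which share a stretch of chromosome 9. Bcl2a1d lies at chr9:88723285-88731914 on the minus strand, Bcl2a1a at chr9:88956900-88962419 on the plus strand and Bcl2a1b at chr9:89199209-89207827 on the plus strand. Mcl1 lies at chr3:95658788-95663176 and Bcl2l11 at chr2:128126038-128162547, both on the plus strand, and Cflar at chr1:58711508-58758884, also on the plus strand. The other 4 are on the minus strand: Bcl2 at chr1:106538178-106714274, Bcl2l1 at chr2:152780668-152831728, Bax at chr7:45461697-45466898 and Bak1 at chr17:27019810-27029009.

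The A1 copies are shown because their counts carry much of what follows and because reads can be shared between them. Each has a coding sequence of 516 bases over 2 exons, and the 3 copies differ at 12 of these positions. Identity was 97.9% between Bcl2a1a and Bcl2a1b (11 differences), 98.6% between Bcl2a1a and Bcl2a1d (7 differences) and 98.8% between Bcl2a1b and Bcl2a1d (6 differences). The first 300 coding bases, all in exon 1, are printed 5′ to 3′ from the GENCODE M21 transcripts, and capitals mark the 7 positions in them at which the copies are not all the same.
Bcl2a1a (chr9:88957051-88957350, GRCm38, plus strand): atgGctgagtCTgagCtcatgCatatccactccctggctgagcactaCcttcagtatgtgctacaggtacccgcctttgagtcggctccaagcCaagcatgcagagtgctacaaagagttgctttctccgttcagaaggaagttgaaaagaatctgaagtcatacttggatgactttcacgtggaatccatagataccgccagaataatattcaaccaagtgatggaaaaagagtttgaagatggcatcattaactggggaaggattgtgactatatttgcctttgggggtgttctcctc
Bcl2a1b (chr9:89199360-89199659, GRCm38, plus strand): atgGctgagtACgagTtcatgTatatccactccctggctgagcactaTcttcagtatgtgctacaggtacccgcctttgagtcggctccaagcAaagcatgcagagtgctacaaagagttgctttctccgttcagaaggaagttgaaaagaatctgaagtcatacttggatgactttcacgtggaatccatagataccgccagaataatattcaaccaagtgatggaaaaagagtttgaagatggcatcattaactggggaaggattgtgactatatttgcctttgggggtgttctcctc
Bcl2a1d (chr9:88731420-88731719, GRCm38, minus strand): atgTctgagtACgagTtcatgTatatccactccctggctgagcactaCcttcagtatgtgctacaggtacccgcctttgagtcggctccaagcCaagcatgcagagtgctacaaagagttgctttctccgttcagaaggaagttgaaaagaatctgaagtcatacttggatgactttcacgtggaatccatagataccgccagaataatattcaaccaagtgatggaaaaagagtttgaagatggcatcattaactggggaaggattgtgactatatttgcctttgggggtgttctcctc
In the last 300 bases of the transcripts, where reads of these 3′ libraries would fall, the longest stretch shared without a mismatch was 90 bases for Bcl2a1a with Bcl2a1b, 173 bases for Bcl2a1a with Bcl2a1d and 176 bases for Bcl2a1b with Bcl2a1d. How reads that fit more than 1 copy were counted is not given in the sources used here, so the split between the copies is uncertain, and their summed count is given beside each copy.

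The stretches just before the starts of the A1 copies are shown because all 3 copies were higher in neutrophils of the CD11b+ heart pool. In the blood and heart pool each copy was lower in neutrophils in 5 or 6 of the 7 hashtags. They are the parts of the RefSeq windows (GRCm38.p6) that lie before the start of each transcript, and capitals mark GAGGAA and its reverse complement TTCCTC, a core recognised by the myeloid factor PU.1.
Bcl2a1a (chr9:88956670-88956899, GRCm38, plus strand): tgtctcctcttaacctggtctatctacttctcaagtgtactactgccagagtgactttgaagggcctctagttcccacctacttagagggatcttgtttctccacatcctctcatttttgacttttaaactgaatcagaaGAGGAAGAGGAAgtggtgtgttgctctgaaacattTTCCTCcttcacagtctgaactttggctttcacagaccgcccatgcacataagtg
Bcl2a1b (chr9:89199023-89199208, GRCm38, plus strand): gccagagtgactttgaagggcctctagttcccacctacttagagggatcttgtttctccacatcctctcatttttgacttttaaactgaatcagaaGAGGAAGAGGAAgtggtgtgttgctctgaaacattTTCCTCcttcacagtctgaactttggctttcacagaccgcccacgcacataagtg
Bcl2a1d (chr9:88731915-88732100, GRCm38, minus strand): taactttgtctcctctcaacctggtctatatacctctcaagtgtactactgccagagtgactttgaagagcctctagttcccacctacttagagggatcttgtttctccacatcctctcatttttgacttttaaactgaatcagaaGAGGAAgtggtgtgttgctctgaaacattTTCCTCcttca
These letters were found 3 times before Bcl2a1a, 3 times before Bcl2a1b and 2 times before Bcl2a1d. Over the 250 bases before the start, on both strands, GAGGAA occurred at 5 of the 10 genes (the A1 copies, Bcl2 and Bak1) and at 23.3% of all 32851 mouse promoters in the table. TGANTCA, a loose form of the AP-1 core with any base in the middle, occurred at the 3 A1 copies and at 6.75% of promoters. At the A1 copies it reads tgaatca, whereas the AP-1 core has C or G in the middle. GGGA and CC with any 4 bases between them, an NF-kB core, occurred at Bak1 and at 17.6% of promoters, TTGCNNAA, a C/EBP core, at Cflar and at 9.56%, and ACGTG, a hypoxia response core, at Bax and at 16.6%. A match is a description of these letters and not a binding site.

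After the filters on cells, 522 to 1793 cells were used in each CD45+ library, 4282 in the CD11b+ heart pool and 9999 in the blood and heart pool, with total counts of 3611089 to 11511763, 92965617 and 68219740 UMIs. In the CD11b+ heart pool, 17.4% of barcodes had over 10% mitochondrial UMIs and were left out, against 0.443% to 5.12% in the other libraries. Libraries shared 0 to 12 cell barcodes in any pair. Neutrophils and monocytes/macrophages were told apart in 2 ways, by the Ly6G antibody and by clusters named from marker genes, with the 10 genes and the related gene lists kept out of the clustering. The clusters called neutrophils held 53556 to 239849 CPM (UMIs of a gene scaled to the total UMIs of a sum) of a list of 17 neutrophil markers on day 1 to day 5 after infarction, against 992 to 25015 CPM in the monocyte/macrophage clusters. The highest value in monocytes/macrophages belonged to day 1 of the CD45+ libraries. Monocytes/macrophages held 16506 to 65954 CPM of 30 markers of their own in the same sums. The sum of day 1 of the CD45+ libraries was the lowest of these, so that it held less of its own markers (16506 CPM) than of the neutrophil markers (25015 CPM).

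Neutrophils in the infarcted heart carried more RNA of most survival genes, as a share of their RNA, than the CD11b+ cells without Ly6G sorted beside them. The comparison set Ly6G-high cells (266, 1057 and 266 cells on day 1, 3 and 5) against Ly6G-low cells (222, 1052 and 1319 cells) of the CD11b+ heart pool, with the day as a block, so that class was read from a protein and not from RNA. In edgeR's quasi-likelihood test with Benjamini-Hochberg adjustment over all genes, 7 of the 10 genes were higher in Ly6G-high cells (21.3% of the 10196 genes tested were) and 1 was lower (21.7% of all were). The 8 genes called compare with 43.1% of all genes called in either direction. The median difference of the 10 genes was 1.66 on the log2 scale, and that of all genes was -0.10. With total counts in place of TMM scaling, the calls over all genes moved from 2176 higher and 2216 lower to 1366 higher and 2621 lower, the median of all genes was -0.37, and the same 7 genes were higher.

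**Figure D1:**
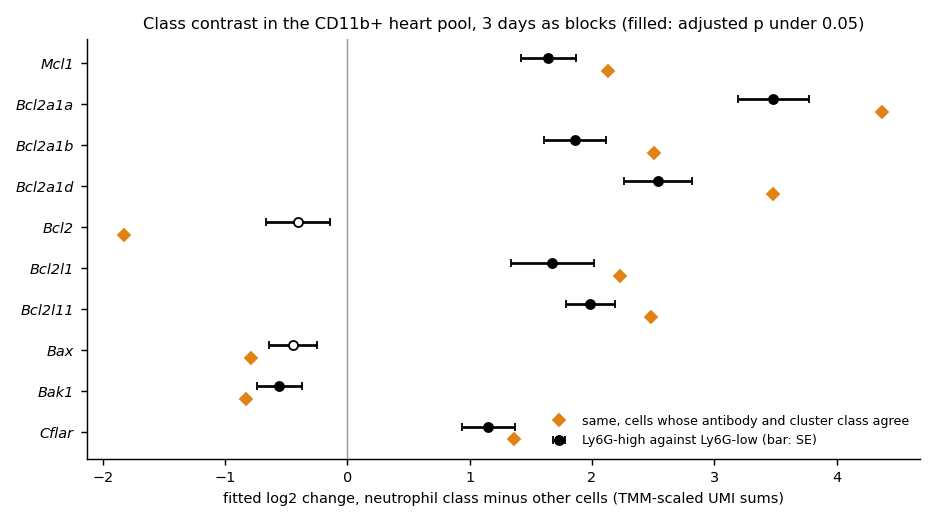
Log2 difference in Ly6G-high against Ly6G-low cells of the CD11b+ heart pool for the 10 genes, with circles at the edgeR estimate over 3 days (filled where the adjusted p was under 0.05) and bars of 1 standard error. Diamonds are the same fit on cells whose antibody and cluster class agree. The 3 A1 copies, Bcl2l11, Bcl2l1, Mcl1 and Cflar lie above 0 and Bak1, Bax and Bcl2 lie below it.

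Among the survival genes, Mcl1, whose protein is needed for neutrophils to stay alive, stood at 2743, 3096 and 2448 CPM in Ly6G-high cells on day 1, 3 and 5 and at 1228, 995 and 1032 CPM in Ly6G-low cells. Each Ly6G-high value was above each Ly6G-low value. The share of all genes so separated is not given here. Such separation, for Mcl1 and for the genes below, describes the values and adds no support to the test. The difference was 1.64 ± 0.22 on the log2 scale (SE, 3 days, edgeR adjusted p = 0.000597).

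Bcl2a1a had the largest difference of the 10. It stood at 485, 597 and 286 CPM in Ly6G-high cells against 112, 36.5 and 26.9 CPM in Ly6G-low cells, a difference of 3.48 ± 0.29 (edgeR adjusted p = 3.5e-05). Bcl2a1d followed at 266, 439.7 and 265 CPM against 126, 54.6 and 43.1 CPM (2.54 ± 0.28, edgeR adjusted p = 0.000187). Bcl2a1b, the copy with the most UMIs, stood at 1808, 1975 and 1368 CPM against 648, 493 and 588 CPM (1.86 ± 0.25, edgeR adjusted p = 0.000612). The groups did not overlap for any of the copies, with the same limit. Summed over the 3 copies, A1 stood at 2559, 3012 and 1918 CPM in Ly6G-high cells and at 886, 584 and 658 CPM in Ly6G-low cells.

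Bcl2l1, which encodes Bcl-xL, stood at 202, 119 and 82.4 CPM against 44.0, 54.6 and 44.6 CPM (1.67 ± 0.34, edgeR adjusted p = 0.00448). Cflar, the inhibitor of death receptor signalling, stood at 421, 512 and 364 CPM against 251, 229 and 229 CPM (1.15 ± 0.22, edgeR adjusted p = 0.00307). In both genes the lowest Ly6G-high value was above the highest Ly6G-low value. Bcl2 went the other way in level without passing the test: 5.42, 8.65 and 9.11 CPM in Ly6G-high cells against 8.92, 14.6 and 12.3 CPM in Ly6G-low cells (-0.40 ± 0.26, edgeR adjusted p = 0.237), and the groups overlapped.

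Of the genes that promote death, Bcl2l11, which encodes the BH3-only protein Bim, was higher along with the survival genes. It stood at 614, 508 and 410.3 CPM in Ly6G-high cells against 219, 135 and 129 CPM in Ly6G-low cells (1.98 ± 0.20, edgeR adjusted p = 0.000106), with no overlap. Both effectors had lower levels. Bak1 was at 26.4, 50.8 and 52.4 CPM against 76.2, 87.4 and 64.7 CPM (-0.56 ± 0.18, edgeR adjusted p = 0.0349). Bax was at 107, 196 and 215 CPM against 311, 279 and 246 CPM (-0.44 ± 0.20, edgeR adjusted p = 0.0928), which did not pass. The call for Bak1 was lost with DESeq2 (adjusted p = 0.075), with Ly6G counts taken as a log alone (0.0662) and without either class of day 1 or of day 3, with adjusted p from 0.091 to 0.209.

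The Ly6G-high class was not pure by RNA. Of its 1589 cells, 89.4% lay in neutrophil clusters, and cells in monocyte/macrophage clusters made 10.5% of the cells but 40.4% of the UMIs (24.7%, 37.0% and 60.7% on day 1, 3 and 5). Of the 2593 Ly6G-low cells, 95.6% lay in monocyte/macrophage clusters. When only cells on which the antibody and the clusters agreed were summed, a choice made after the data were seen, all 10 genes passed. The share of all genes called there is not given here, and 43.1% were called in the main contrast. The differences in that fit were 4.38 for Bcl2a1a, 3.48 for Bcl2a1d, 2.51 for Bcl2a1b, 2.48 for Bcl2l11, 2.23 for Bcl2l1, 2.13 for Mcl1 and 1.37 for Cflar. On the lower side they were -1.82 for Bcl2 (edgeR adjusted p = 0.0089), -0.83 for Bak1 and -0.79 for Bax.

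The clusters also gave both classes in the CD45+ libraries, where the depth per cell and the chemistry differed. These clusters come from the RNA of the same cells, though with the 10 genes kept out. Calls between them describe the clusters and are no independent test. In the CD11b+ heart pool the neutrophil clusters held 253, 994 and 226 cells on day 1, 3 and 5, and in the CD45+ libraries 216, 135 and 40. With the 6 pairs of sums together, all 10 genes passed in edgeR. The share of all genes called in that fit is not given here, and 43.1% were called in the main contrast. Bcl2a1a (3.60), Bcl2a1d (2.64), Bcl2l1 (2.33), Bcl2l11 (2.28), Bcl2a1b (2.18), Mcl1 (1.42) and Cflar (1.11) were higher in neutrophils. Bcl2 (-1.77), Bax (-0.97) and Bak1 (-0.86) were lower.

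**Figure D2:**
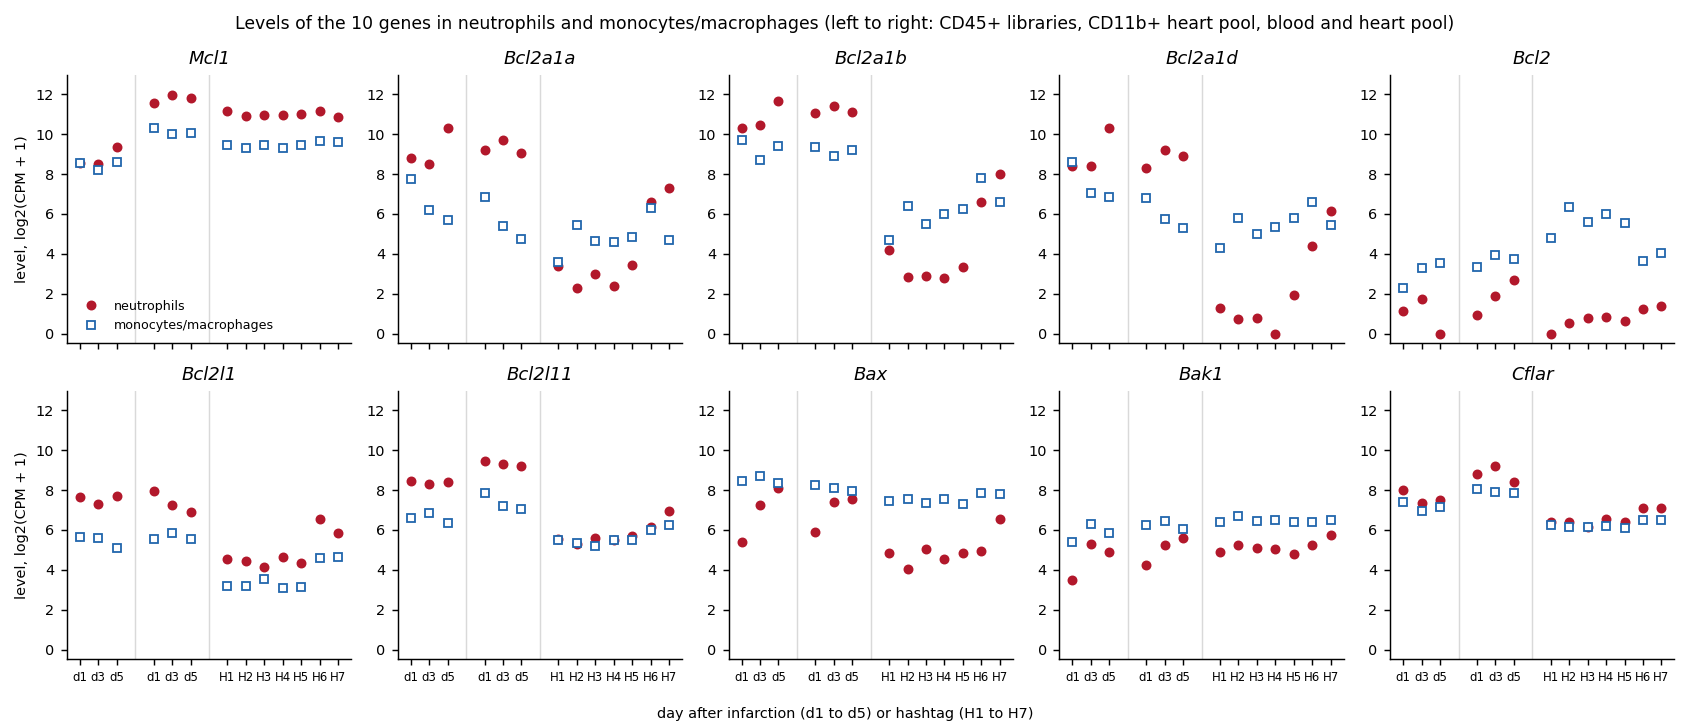
Levels of each gene as log2(CPM + 1) in neutrophils (filled circles) and monocytes/macrophages (open squares), 1 point for each pooled sum, from left to right in the CD45+ libraries and the CD11b+ heart pool (day 1, 3 and 5) and, by hashtag, in the blood and heart pool. Mcl1 stands higher in both classes of the CD11b+ heart pool than in the CD45+ libraries, whereas the ranges of Bcl2l1 in neutrophils overlap.

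Mcl1 differed most between the 2 experiments. In the pool it stood at 3092, 3968 and 3646 CPM in neutrophils and at 1279, 1040.5 and 1057 CPM in monocytes/macrophages. In the CD45+ libraries it stood at 379, 368 and 669 CPM in neutrophils against 378, 295 and 389 CPM in monocytes/macrophages, so that on day 1 the classes had nearly the same share. The pool value was 5.45 to 10.8 times the CD45+ value in neutrophils and 2.72 to 3.53 times in monocytes/macrophages. The gap between the classes was 1.32 ± 0.31 larger in the pool on the log2 scale, which did not pass (edgeR adjusted p = 0.50; 0% of the 8516 genes passed). For Bcl2a1d this difference was 1.37 ± 0.43 (edgeR adjusted p = 0.53) and for Bcl2a1a it was 1.07 ± 0.44 (edgeR adjusted p = 0.64), and these 3 genes lay under 0.05 before adjustment. How many of all genes did so is not given here. With each library or hashtag as a block, which pairs the classes of 1 capture and was added after seeing the data, the same 3 genes passed in edgeR (adjusted p = 0.00152 for Mcl1, 0.000594 for Bcl2a1d and 0.0175 for Bcl2a1a), beside 1.5% of all genes. That fit leaves 2 residual degrees of freedom, and edgeR then took the spread of each gene wholly from the trend over genes. DESeq2 without that block called Mcl1 alone (1.22, adjusted p = 0.0067), and over the alternatives run the adjusted p of Mcl1 lay between 0.00152 and 0.9997. The chemistry, the gene annotation, the sort and the neutrophil reduction differed between the experiments, and their parts cannot be told apart.

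The summed A1 copies were not higher throughout the pool. Their sum in neutrophils was 3074, 4156 and 3260 CPM in the pool and 2049, 2130 and 5779 CPM in the CD45+ libraries. In monocytes/macrophages it was 885, 582 and 646 CPM in the pool and 1457, 625 and 837 CPM in the CD45+ libraries. Neutrophils were above monocytes/macrophages in each of the 6 pairs. Bcl2a1d in monocytes/macrophages was at 0.286 to 0.394 times its CD45+ value in the pool, and Bcl2a1a at 0.506 to 0.573 times. At steady state and on day 7, when the CD45+ libraries held too few neutrophils for a sum, monocytes/macrophages stood at 880.2 and 1386 CPM.

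Bcl2 was close to the limit of detection in neutrophils. Their sums held 1, 11 and 5 Bcl2 UMIs in the pool (0.891, 2.72 and 5.43 CPM) and 1, 1 and 0 UMIs in the CD45+ libraries. Monocytes/macrophages stood at 9.20, 14.4 and 12.2 CPM in the pool and at 3.88, 8.91 and 10.7 CPM in the CD45+ libraries, with 23.7 CPM at steady state and 17.8 CPM on day 7. In each of the 6 pairs the neutrophil value was the lower, though on day 1 and day 3 of the CD45+ libraries it rests on 1 UMI each. The day 5 neutrophils of the CD45+ libraries held 104690 UMIs in all, so that a floor of 3 UMIs lies at 28.7 CPM. Their count of 0 is under that floor, and a difference from 10.7 CPM was not detectable at this depth.

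The effectors were lower in neutrophils by cluster too. Bax stood at 58.8, 167 and 189 CPM in the pool and 41.4, 151 and 277 CPM in the CD45+ libraries, against 310, 278 and 248 CPM and 356, 413 and 331 CPM in monocytes/macrophages. Bak1 stood at 17.8, 36.5 and 46.7 CPM and at 10.4, 37.8 and 28.7 CPM, against 75.1, 86.7 and 64.6 CPM and 40.9, 78.3 and 57.5 CPM. For both genes the neutrophil value was the lower in all 6 pairs, and the ratio between the classes was largest on day 1.

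The single A1 copies, Bcl2l1, Bcl2l11 and Cflar stood higher in neutrophils in all 6 pairs but 1. Bcl2a1a was at 583, 851 and 540.2 CPM in neutrophils of the pool and at 441, 364 and 1261 CPM in those of the CD45+ libraries, against 113, 40.8 and 25.9 CPM and 215, 71.3 and 51.2 CPM in monocytes/macrophages. The exception was Bcl2a1d on day 1 of the CD45+ libraries, at 342 CPM in neutrophils and 392 CPM in monocytes/macrophages.

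Bcl2l11 was at 714, 641 and 590.1 CPM in pool neutrophils and at 349, 312 and 334 CPM in CD45+ neutrophils, against 234, 146 and 133 CPM and 95.7, 115 and 80.1 CPM in monocytes/macrophages. Neutrophil values of both sets lay above all 6 values of the other class. At steady state monocytes/macrophages held 24.5 CPM of Bcl2l11, below each of their values after infarction, and on day 7 they held 104 CPM. Cflar was at 445, 594 and 345 CPM in pool neutrophils and at 258, 165 and 181 CPM in CD45+ neutrophils, against 262, 239 and 232 CPM and 169, 122 and 141 CPM. The Cflar ranges of the classes did not overlap in the pool and overlapped in the CD45+ libraries.

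These are shares of a cell's RNA, and neutrophils held little RNA. In the pool the median neutrophil had 3836 to 4333 UMIs on the 3 days and the median monocyte/macrophage 22304 to 28843. Counted per cell, Mcl1 was lower in neutrophils, at 1372, 1617 and 1485 UMIs per 100 cells against 2975, 3388 and 3318. The A1 sum was at 1364, 1694 and 1327 UMIs per 100 cells against 2060, 1895 and 2027. Of the 10 genes, 0 had more UMIs per neutrophil on all 3 days of the pool, though Bcl2a1a had 347 against 133 on day 3 and 219.9 against 81.3 on day 5. Thinning each cell to 1500 UMIs turns counts per cell back into shares of RNA. After it, 7 genes were higher per neutrophil on all 3 days. Mcl1 was then at 472, 596 and 573 UMIs per 100 cells against 179, 176 and 158. Bcl2 and Bak1 were higher on 0 of the 3 days and Bax on 1.

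Across days, neutrophils of day 5 held a smaller scaled share of Bcl2l1 and Cflar RNA than those of day 1. The fit used 6 sums, 1 for each of day 1, 3 and 5 in both experiments, with the experiment as a term, and Bcl2 was too low to be tested. From day 1 to day 5, 2 of the 9 genes tested passed in edgeR, both lower (7.51% of the 6194 genes passed, 123 higher and 342 lower). From day 1 to day 3, 0 of 9 passed (2.53% of all genes did), 3 lay under 0.05 before adjustment, and DESeq2 called 0. How many of all genes lay under 0.05 before adjustment is not given here, so that count is no result about these genes. From day 3 to day 5, 0 of 9 passed (0% of all genes did), 0 lay under 0.05 before adjustment, and DESeq2 called 0.

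Bcl2l1 stood at 299.7, 118 and 84.5 CPM on day 1, 3 and 5 in the pool and at 376, 179.6 and 165 CPM in the CD45+ libraries after TMM scaling, which sets the bulk of genes level between sums. Day 1 was highest in both experiments. The change to day 5 was -1.53 ± 0.41 (edgeR adjusted p = 0.0292), and within the experiments it was -1.82 in the pool and -1.16 in the CD45+ libraries. Without scaling, Bcl2l1 stood at 250.3, 152 and 121 CPM in the pool but at 199, 156 and 210.1 CPM in the CD45+ libraries, where day 5 was not below day 1.

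Cflar stood at 533, 461 and 241 scaled CPM in the pool and at 487, 190.5 and 143 in the CD45+ libraries. Its change to day 5 was -1.48 ± 0.42 (edgeR adjusted p = 0.0405), with -1.14 in the pool and -1.74 in the CD45+ libraries. With 1 sum left out, the change to day 5 lay between -1.775 and -1.287 for Bcl2l1 and between -1.999 and -1.022 for Cflar. Both calls in edgeR were lost when cells with up to 20% mitochondrial UMIs were kept (adjusted p = 0.135 and 0.164), without the day 5 neutrophils of the pool (0.324 and 0.265) and without those of the CD45+ libraries (0.163 and 0.300). With total counts in place of TMM, the median of all genes moved by 0.90, the calls over all genes turned from 123 higher and 342 lower to 1138 higher and 90 lower, and neither gene passed (-0.52 and -0.46).

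**Figure D3:**
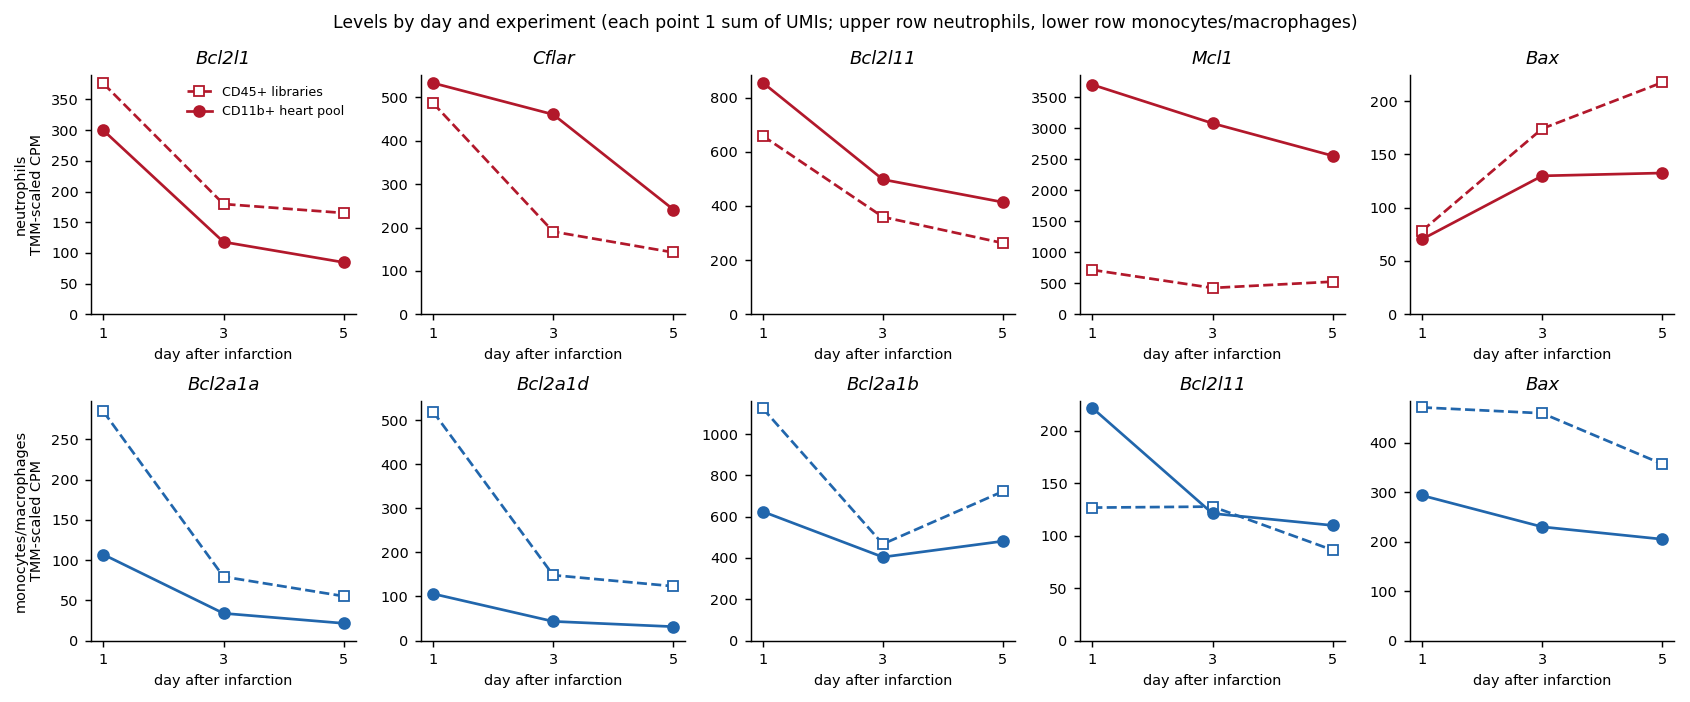
TMM-scaled CPM of 5 genes in neutrophils (upper row) and 5 genes in monocytes/macrophages (lower row) by day after infarction, each point 1 pooled sum, with a solid line for the CD11b+ heart pool and a dashed line for the CD45+ libraries. In neutrophils Bcl2l1 and Cflar were lower on day 5 than on day 1 in both experiments, and in monocytes/macrophages Bcl2a1a and Bcl2a1d were lower on day 3 and day 5 than on day 1.

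The genes that promote death lay on opposite sides of 0 without passing. Bcl2l11 stood at 855, 497 and 414 scaled CPM in the pool and at 659, 359 and 263 in the CD45+ libraries (day 5 against day 1: -1.18 ± 0.39, edgeR adjusted p = 0.0741). Bax stood at 70.4, 129.9 and 133 in the pool and at 78.3, 174 and 218 in the CD45+ libraries (1.17 ± 0.41, edgeR adjusted p = 0.0864). With total counts in edgeR, Bax passed on both day 3 (1.67, adjusted p = 0.030) and day 5 (2.18, adjusted p = 0.0053). Mcl1 did not pass (-0.49 ± 0.43, edgeR adjusted p = 0.520), and its sign turned with total counts (0.55). The A1 copies did not pass and had no steady direction. Between day 1 and day 5 Bcl2a1a was at -0.88 in the pool and 0.25 in the CD45+ libraries, Bcl2a1b at -0.73 and 0.09, and Bcl2a1d at -0.16 and 0.65. With total counts the fitted changes of the copies were 0.84, 0.76 and 1.37.

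The neutrophils of day 1 and of later days lay largely in different clusters. In the CD45+ libraries a cluster led by Ngp, Retnlg, Lcn2 and Camp held 99.1% of neutrophils on day 1, and one led by G0s2, Il1r2, Irg1 and Asprv1 held 97.0% on day 3 and 100% on day 5. In the pool a cluster led by Retnlg, S100a8, S100a9 and Lcn2 held 83.4% on day 1, 22.7% on day 3 and 31.4% on day 5, and one led by Tnf, Icam1, Dusp2 and Ccl3 held the remainder. The summed neutrophil markers were lower on later days as well, at 104622, 53556 and 66018 CPM on day 1, 3 and 5 in the pool and at 239849, 112258 and 67877 CPM in the CD45+ libraries. Their part in the day differences was not tested.

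Within each pool cluster the levels could be read by day. Bcl2l1 stood at 263, 127 and 137 CPM in the Retnlg cluster and at 155, 159.7 and 114 CPM in the Tnf cluster. The A1 sum was 2979, 2893 and 1353 CPM in the Retnlg cluster against 3808, 4561 and 3991 CPM in the Tnf cluster. On each day the Tnf cluster was the higher in A1. Bax stood at 55.4, 102 and 54.9 CPM against 85.1, 188 and 241 CPM, again higher in the Tnf cluster on each day. Mcl1 was close in both, at 3098, 3821 and 3836 CPM against 3049, 4016 and 3574 CPM. These clusters come from the RNA of the same cells, so the values describe them and are no test.

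In monocytes/macrophages the lesser A1 copies were lower after day 1. Of the 10 genes, 2 passed in edgeR from day 1 to day 3, both lower (0.691% of the 10558 genes passed), and the same 2 passed from day 1 to day 5, again lower (9.75% of all genes passed, 442 higher and 587 lower). With total counts the split for day 5 over all genes was 543 higher and 310 lower, and for day 3 DESeq2 gave 164 higher and 317 lower against 15 and 58 in edgeR. From day 3 to day 5, 0 of 10 passed (0.00947% of all genes did), 1 lay under 0.05 before adjustment, and DESeq2 called 0. How many of all genes lay under 0.05 before adjustment is not given here either.

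Bcl2a1a stood at 107, 33.8 and 21.4 scaled CPM on day 1, 3 and 5 in the pool and at 285, 79.3 and 55.1 in the CD45+ libraries. Both experiments had day 1 highest and day 5 lowest. Its change was -1.75 ± 0.17 to day 3 (edgeR adjusted p = 0.0425) and -2.34 ± 0.17 to day 5 (edgeR adjusted p = 0.00528).

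Bcl2a1d stood at 106, 43.4 and 31.5 scaled CPM in the pool and at 519, 148 and 123 in the CD45+ libraries. Its change was -1.55 ± 0.19 to day 3 (edgeR adjusted p = 0.0463) and -1.92 ± 0.19 to day 5 (edgeR adjusted p = 0.0076). Of the alternatives run, the day 5 calls in edgeR were lost only when the experiment was not a term of the fit (adjusted p = 0.337 and 0.522). The day 3 calls in edgeR were lost for both genes with total counts (0.071 and 0.081), with a stricter margin between hashtags (0.053 and 0.053) and without the day 3 sum of either experiment (0.078 to 0.407). With 1 sum left out, the change of Bcl2a1a lay between -1.818 and -1.638 to day 3 and between -2.394 and -2.225 to day 5. For Bcl2a1d it lay between -1.745 and -1.282 to day 3 and between -2.114 and -1.642 to day 5.

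Bcl2a1b, the copy with the most UMIs, did not pass in edgeR with the filter on low counts. It stood at 625, 404 and 481 scaled CPM in the pool and at 1125, 467 and 723 in the CD45+ libraries (-0.94, adjusted p = 0.108 on day 3, and -0.51, adjusted p = 0.138 on day 5, both edgeR). Its day 3 change passed with DESeq2 (adjusted p = 0.00941), in edgeR with no filter (0.0338) and without either day 1 sum (0.000283 and 0.00215). With the copies summed in edgeR, the change to day 5 was -0.89 (adjusted p = 0.049) and that to day 3 was -1.14 (adjusted p = 0.079). The other genes lay between -0.81 (Bcl2l11, edgeR adjusted p = 0.0834) and 0.55 (Bcl2, edgeR adjusted p = 0.278) on day 5, and DESeq2 called Bcl2l11 as well (adjusted p = 0.039).

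RNA of neutrophil markers was lower over the same days, and its part in the result was not tested. The 17 markers summed to 3509, 1251 and 992 CPM in the pool's monocytes/macrophages on day 1, 3 and 5, which was 3.35%, 2.34% and 1.50% of their level in neutrophils. In the CD45+ libraries they summed to 25015, 3426 and 1045 CPM (10.4%, 3.05% and 1.54%). Bcl2a1a in monocytes/macrophages was at 19.4%, 4.80% and 4.79% of its neutrophil level in the pool and at 48.8%, 19.6% and 4.06% in the CD45+ libraries. Bcl2a1d was at 35.5%, 8.84% and 7.87% in the pool and at 115%, 39.7% and 8.87% in the CD45+ libraries.

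The clusters that held monocytes/macrophages changed over the same days. In the pool a cluster led by Plac8, Chil3 and Ccr2 held 72.9%, 45.9% and 26.7% of them, and one led by Fabp5, Gpnmb, Pf4 and Apoe held 4.8%, 34.5% and 52.0%. In the CD45+ libraries a cluster led by Saa3, Cxcl3 and Arg1 held 82.1% on day 1. It had 6 monocyte/macrophage markers detected against 4 neutrophil markers, and Slpi of the neutrophil list was among its top genes. One led by Plac8, Chil3 and Ly6c2 held 57.3% on day 3, and one led by Ms4a7, Spp1 and Gpnmb held 69.4% on day 5. Within the Plac8 cluster of the pool, Bcl2a1a stood at 129, 62.8 and 63.4 CPM. In the Fabp5 cluster it stood at 22.2 CPM on day 3 and 18.4 CPM on day 5.

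Whether neutrophils and monocytes/macrophages changed differently over days was tested over 12 sums, and 0 of the 10 genes passed in edgeR for any pair of days with the experiment as a term. For day 3 against day 1, 0.0235% of the 8516 genes passed, for day 5 against day 1 it was 0.693%, and for day 5 against day 3 it was 0%. Before adjustment 4, 5 and 1 of the 10 genes lay under 0.05 for these pairs of days, and DESeq2 called 1, 3 and 0. Shares of all genes for these counts are not given here, so the counts are no result about the 10 genes. For day 5 against day 1 the differences nearest the threshold were those of Bax (1.47 ± 0.37, edgeR adjusted p = 0.0874), Bcl2a1d (2.06 ± 0.52, edgeR adjusted p = 0.0877) and Bcl2a1a (1.94 ± 0.54, edgeR adjusted p = 0.110), each higher in neutrophils relative to monocytes/macrophages. With each library or hashtag as a block, added after seeing the data, 3 genes passed for day 3 against day 1 (3.63% of all genes), 5 for day 5 against day 1 (8.72%) and 0 for day 5 against day 3 (0.27%). For day 5 against day 1 these were Bcl2a1d (1.99, edgeR adjusted p = 2.31e-06), Bcl2a1a (1.85, 1.61e-05) and Bax (1.47, 0.00387), higher in neutrophils relative to the other class, and Bcl2l1 (-1.22, 0.027) and Cflar (-1.13, 0.0291), lower. The same limit on the spread holds for these values. DESeq2 without the block called Bax, Bcl2a1d and Bcl2a1a. With total counts edgeR called them too, and the calls over all genes went from 31 higher and 28 lower to 857 higher and 30 lower.

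The make-up of A1 differed between the classes and over days. In neutrophils of the pool Bcl2a1b made 65.2% to 70.8% of A1 UMIs, Bcl2a1a 16.6% to 20.5% and Bcl2a1d 10.3% to 14.8%. In its monocytes/macrophages Bcl2a1b made 74.6%, 84.0% and 90.1% on day 1, 3 and 5, while Bcl2a1a made 12.8%, 7.02% and 4.01%. The CD45+ libraries had the same order in monocytes/macrophages, with Bcl2a1b at 58.3%, 67.3% and 80.2%, and 71.3% at steady state and 78.2% on day 7. In their neutrophils Bcl2a1b made 55.9% to 67.2%. These shares rest on how shared reads were counted and carry no test.

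**Figure D4:**
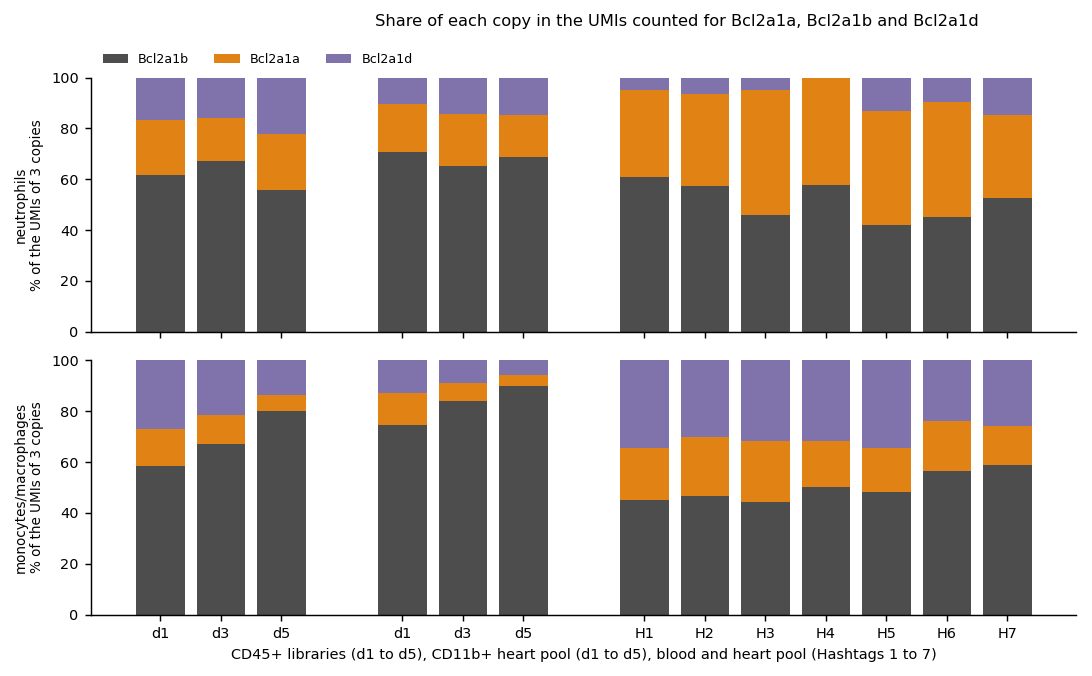
Stacked bars of the share of A1 UMIs (percent) that Bcl2a1b, Bcl2a1a and Bcl2a1d made in neutrophils (upper row) and monocytes/macrophages (lower row), 1 bar for each pooled sum of the CD45+ libraries, the CD11b+ heart pool and, by hashtag, the blood and heart pool. Bcl2a1b makes the largest share in each sum of the first 2 sets, and its share in monocytes/macrophages of the CD11b+ heart pool goes from 74.6% on day 1 to 90.1% on day 5.

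Other genes of the same pathways were read from 3 lists, in the fits above. In Ly6G-high against Ly6G-low cells, 6 of 11 tested genes of the wider Bcl2 family were higher and 2 lower, beside 21.3% and 21.7% of all genes, with a median of 0.65 against -0.10 over all genes. Bcl2l15, a little studied relative, was at 5.36, Pmaip1, which encodes the BH3-only protein Noxa, at 2.09, and Bcl2a1c, another A1 copy, at 4.47. Bcl2l2, which encodes the survival protein Bcl-w, was lower by the test at -0.98, and so was Bad, another BH3-only gene, at -0.60.

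Of 20 tested genes of caspases and death receptors, 6 were higher and 2 lower in Ly6G-high cells, with a median of 0.19. These counts lie near the 21.3% and 21.7% of all genes. Fas, a death receptor, was at 2.88, Birc3, an inhibitor of apoptosis, at 2.15 and the TNF receptor Tnfrsf1a at 1.36. Fadd, the adaptor of death receptors, was lower at -1.38. Of 18 genes of survival inputs, 8 were higher and 0 lower, with a median of 0.41. The receptor for G-CSF, Csf3r, was at 4.97, the survival kinase gene Pim1 at 1.95 and Foxo3, a transcription factor that can drive Bim, at 0.96. Csf3r is also in the list of neutrophil markers.

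In neutrophils from day 1 to day 5, the calls in these lists were all lower, beside 7.51% of all genes called, 342 of them lower and 123 higher. They were 1 of 9 in the Bcl2 family list (Bnip3, -2.41, edgeR adjusted p = 0.032), 2 of 16 in the caspase and death receptor list (Fas, -2.08, adjusted p = 0.013, and Casp8, -1.78, adjusted p = 0.046) and 1 of 18 in the survival input list (Csf2rb2, -1.65, adjusted p = 0.049). The medians were -0.66, -0.36 and -0.47 against -0.03 over all genes, and with total counts the calls over all genes turned to 1138 higher and 90 lower. In monocytes/macrophages from day 1 to day 5, 9.75% of all genes were called, and 2 of 11 were lower in the first list (Bcl2a1c, -2.49, and Bnip3, -2.28). In the caspase and death receptor list 1 of 20 was higher (Fadd, 1.96) and 2 were lower (Fas, -1.66, and Casp6, -1.35). In the survival input list 3 of 18 were lower (Hif1a, -1.62, Csf2rb, -1.48, and Csf2rb2, -1.08), and the medians were -0.09, -0.25 and -0.14 against -0.01. For the other day comparisons and the interactions, 0 genes of the lists passed in edgeR.

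Other leukocytes of the hearts set the scale for Bcl2, the survival gene on which lymphocytes depend. On day 7 of the CD45+ libraries Bcl2 stood at 422 CPM in NK cells (41 cells), 125 CPM in T cells (95), 71.2 CPM in B cells (963), 40.2 CPM in dendritic cells (54) and 17.8 CPM in monocytes/macrophages. Mcl1 in the same library stood at 145 CPM in B cells, 123 in NK cells, 166 in T cells, 243 in dendritic cells and 459 in monocytes/macrophages. The A1 sum stood at 396 CPM in B cells, 373 in NK cells and 677 in T cells. Dendritic cells of the heart had 1469 to 1871 CPM over their sums. Each is 1 pooled sum per library, so neighbours in these orders carry no test.

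The genes whose pattern was most like those of the members were found by Pearson's correlation of log2 CPM over 28 sums among 2587 genes, as a description. The sums share libraries, depth and class, which sets much of the likeness. For Mcl1 they were Arih1 (0.948), Dennd4a (0.945) and Med13l (0.926). For Bcl2a1b they were Dusp2 (0.969), Tgif1 (0.966) and Cdkn1a (0.964). For Bcl2l11 they were Irak2 (0.937), Vps37b (0.912) and Ell2 (0.912).

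In the blood and heart pool the neutrophils of the 7 hashtags differed much in A1 and little in Mcl1. The A1 sum was 27.9, 10.5, 13.8, 10.2, 21.7, 210.1 and 478 CPM in hashtags 1 to 7 (median 21.7). Hashtags 6 and 7 were far above the others. Mcl1 ranged from 1852 to 2300.5 CPM (median 2016), and Bcl2 from 0 to 1.58 CPM on 0 to 3 UMIs. Bcl2l1 was 22.1, 20.5, 16.4, 24.2, 19.1, 91.7 and 56.8 CPM, also highest in hashtags 6 and 7. Bcl2l11 was at 38.4 to 51.4 CPM in hashtags 1 to 5, at 69.0 CPM in hashtag 6 and at 121 CPM in hashtag 7. Cflar was 84.1, 83.5, 69.1, 93.0, 84.5, 139 and 138 CPM. Bax was at 92.4 CPM in hashtag 7 and at 15.6 to 32.6 CPM in the other 6.

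In the monocytes/macrophages of that pool the A1 sum was 54.6, 179, 99.3, 125, 158, 394 and 163 CPM, above the neutrophils of the same hashtag in hashtags 1 to 6 and below them in hashtag 7. Mcl1 ranged from 634 to 824 CPM (median 713), below the neutrophils of every hashtag. Bcl2 was 26.8, 81.1, 47.1, 62.4, 45.3, 11.4 and 15.4 CPM, lowest in hashtags 6 and 7. Bax ranged from 158 to 230 CPM and Bak1 from 83.6 to 103 CPM.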

How the data were processed

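Single-cell RNA-seq of sorted mouse leukocytes was deposited as matrices of UMI counts per gene and cell. Per the submitters' processing notes, the authors made these counts with Cell Ranger against mm10/GRCm38, and per the file headers both hashtag pools were made with version 3.0.2. How reads that fit several genes were treated is not given in the sources used here. The deposited antibody and hashtag counts of the pools are UMI counts as well. Groups came from the labels, and hashtags of the CD11b+ heart pool from its protocol.

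Cells needed 200 genes and at most 10% mitochondrial UMIs, and doublets (18 cells in the CD45+ libraries, by scanpy 1.11.5) and cells with several hashtags (311 and 1430) were removed. Clusters (2000 variable genes, 30 components, 15 neighbours, Leiden resolution 0.5) were built without the members and pathway lists and named from markers. Counts were summed per class and day (at least 30 cells), scaled by TMM and filtered with filterByExpr, and tested with edgeR 4.0.16 (quasi-likelihood, Benjamini-Hochberg, threshold 0.05) in R 4.3.3. Class in the main contrast came from Ly6G antibody counts (posterior above 0.9 or below its complement). Alternatives were DESeq2 1.42.0, total counts, no filter, other cell, class and hashtag rules, summed A1 copies and each sum left out. The agreement class, the class gap between experiments and the library block of the 12-sum fit were chosen after seeing the data. In simulated data with changes of 2 on the log2 scale, 91.5% of changed genes were recovered in the class contrast, 42.6% to 59.2% in the neutrophil day contrasts and 71.9% to 80.1% in those of monocytes/macrophages. The simulation gave every gene and contrast the same spread and put in no other difference between days or experiments. Changed genes were drawn from those past the filter on low counts. These rates therefore need not hold for the real contrasts.

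The members and the lists were chosen with earlier results of these data known. All 10 members are named in each contrast. From each pathway list at most the 3 genes with the largest and the 3 with the smallest change among those called are named. The 3 genes most like Mcl1, Bcl2a1b and Bcl2l11 were taken among genes with a mean of at least 50 CPM. Intervals and floors cover counting error only.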

Additional observations from a re-analysis of the deposited data

How the results depend on the processing

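In the main fit of the class contrast 43.1% of all genes were called. That contrast called 7 to 10 of the 10 genes under each alternative on single rows and 7 to 8 with 1 sum left out. With the A1 copies summed it called 6 of the 8 rows. Counts of called members that moved in the neutrophil day contrasts were as follows. For day 3 against day 1 (0), the count was 1 with total counts and 0 to 1 with 1 sum left out. For day 5 against day 1 (2), it was 1 with class from the Ly6G antibody, 0 with mitochondrial share up to 20%, 0 with no experiment term, 1 with total counts (Bax in place of Bcl2l1 and Cflar) and 0 to 4 with 1 sum left out. In monocytes/macrophages, day 3 against day 1 (2) gave 0 with the A1 copies summed, 1 with the antibody class, 0 with a hashtag margin of 2 times, 1 with mitochondrial share up to 20%, 0 with no experiment term, 0 with total counts, 3 with DESeq2 and 3 with no filter (Bcl2a1b added in both) and 0 to 6 with 1 sum left out. Day 5 against day 1 (2) gave 1 with the copies summed, 0 with no experiment term, 3 with DESeq2 (Bcl2l11 added) and 2 to 5 with 1 sum left out, and day 5 against day 3 (0) gave 0 to 5. The interaction of day 3 against day 1 (0) gave 1 with DESeq2 and 3 with the library as a block, and that of day 5 against day 1 (0) gave 3 with DESeq2, 2 with no filter, 3 with total counts, 5 with the library as a block and 0 to 1 with 1 sum left out. The class gap (0) gave 1 with DESeq2, 1 with no filter and 3 with the library as a block. Genes higher per neutrophil on all pool days went from 0 to 7 after thinning, which turns counts per cell back into shares of RNA. Mcl1 in neutrophils changed sign with total counts, to 0.19 on day 3 and 0.55 on day 5. Apart from the thinning, the cause was not tested in these cases. A day can rest on 1 sum where 1 is left out, and the share of all genes called there is not given here.

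Over all genes, calls for neutrophils on day 5 against day 1 went from 465 to 67 with mitochondrial share up to 20%, 302 with the antibody class and 1228 with total counts. For day 3 against day 1 they went from 157 to 56, 50 and 452. In monocytes/macrophages, day 3 against day 1 went from 73 to 14, 10 and 6, to 4 with the hashtag margin, 481 with DESeq2 and 596 with no filter, and day 5 against day 1 from 1029 to 1758 with no filter. The class contrast went from 4392 to 2090 with Ly6G counts as a log alone, and the interaction on day 5 from 59 to 887 with total counts, 531 with DESeq2 and 743 with the library as a block, while that on day 3 went from 2 to 309 and the class gap from 0 to 128 with the library as a block. Of the single-gene values, 228 kept their direction and side of the threshold under the other settings, 25 newly passed, 19 no longer passed and 2 reversed. The sums hold 40 to 1361 cells, and Bcl2 in neutrophils is limited by depth. The labels give no replicate numbers that groups share. Classes of 1 library were paired through the day block of the class contrast and the library block above, and the day contrasts have no pairs, since each library or hashtag is another pool of mice.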

Other observations

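Sums of under 30 cells entered no comparison. At steady state, 7 neutrophils of the CD45+ library held 14 Mcl1 UMIs, 15 UMIs of the A1 copies, 1 of Bcl2l11, 2 of Cflar and 0 of Bcl2, Bcl2l1, Bax and Bak1. On day 7, 29 neutrophils held 57 UMIs of Mcl1, 57 of Bcl2a1a, 240 of Bcl2a1b, 85 of Bcl2a1d, 17 of Bcl2l11, 13 of Bcl2l1, 18 of Bax, 10 of Cflar and 2 each of Bcl2 and Bak1.

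In the blood and heart pool, 1 neutrophil cluster of 506 cells, led by Cxcl2, Il1r2, Basp1 and G0s2, held 39.7% of the neutrophils of hashtag 6 and 58.2% of those of hashtag 7, against 0.1% to 0.8% in hashtags 1 to 5. Its A1 sum was 607 CPM, and the other 3 neutrophil clusters stood at 21.4, 9.12 and 26.0 CPM. Mcl1 stood at 2262 CPM in it and at 2127, 1927 and 2076 CPM in the others, so the clusters were far apart in A1 and close in Mcl1. Bcl2l11 stood at 134 CPM in it.

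Among monocytes/macrophages of that pool, a cluster of 835 cells led by Ear2, Ace, Pou2f2, Spn and Eno3 held 225 CPM of Bcl2 and 552 CPM of the A1 copies. A cluster of 1995 cells led by Chil3, F13a1, Ccr2 and Ly6c2 held 7.89 and 12.8 CPM. A cluster of 384 cells led by Thbs1, Spp1 and Arg1 held 13.8 CPM of Bcl2 and 311 CPM of the A1 copies, and it made 50.0% and 62.5% of the monocytes/macrophages of hashtags 6 and 7.

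In neutrophils of the same pool Bcl2a1a made 32.7% to 49.2% of A1 UMIs over the 7 hashtags (median 42.1%), above the 16.6% to 21.8% seen in neutrophils of the infarcted hearts in the other libraries. The A1 sums of these neutrophils held only 38 to 605 UMIs per hashtag, and Bcl2a1a 16 to 217, so several of the shares are imprecise. They also rest on how shared reads were counted. These are values of single pooled sums with no test.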
